A study of Homo sapiens with 8 samples.

Results

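The genes described here encode the IFN-gamma receptor, the JAK kinases of its signalling pathway and the inhibitors that act on that pathway, followed in 4 human cancer cell lines with and without IFN-gamma. The 10 members were taken by gene symbol from the 24462 symbols of a count table. They are 2 receptor chains (IFNGR1, IFNGR2), 3 kinases (JAK1, JAK2, TYK2) and 5 feedback inhibitors (SOCS1, SOCS2, SOCS3, CISH, PTPN2). All 10 were found, each as 1 row, and all 10 passed the filter on low counts. The lines were A375, labelled as skin and known as a melanoma line, A498 of kidney origin, and the lung cancer lines H1703 and 549, the last named only by that number. Each line gave 1 untreated library and 1 library from cells given human recombinant IFN-gamma at 20 ng/ml, with 72 hours stated for both arms. That makes 8 libraries, with no replicate within a line.

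IFN-gamma is a cytokine of T cells and NK cells. IFNGR1 binds it and carries JAK1, while IFNGR2 is the second chain and carries JAK2. The kinases phosphorylate the receptor and then STAT transcription factors, which dimerise and bind DNA at sites called GAS elements. SOCS proteins bind kinases or receptors through an SH2 domain and recruit a ubiquitin ligase through the SOCS box. SOCS1 and SOCS3 can also block kinase activity directly, CISH and SOCS2 are best known as STAT5-induced inhibitors of growth hormone and related receptors, and PTPN2 is a tyrosine phosphatase of JAK1 and JAK3. TYK2 serves the type I interferon receptor and does not belong to the IFN-gamma receptor complex.

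The promoters below are shown because they hold the motif matches found among the members. The 250 bases before each start site that RefSeq (GRCh38.p14) lists were searched on both strands for a pair of motifs. One was the GAS form TTCNNNGAA, whose pattern is the same on both strands, and the other the repeat of IRF-type elements, GAAA, any 2 bases and GAAA again. Of the 10 members, 9 had an entry, with 16 start sites in all, and SOCS2 was not matched. The IRF-type repeat was found in SOCS1 and the GAS form in CISH, in 1 member each. Among all 35116 windows of that length, 6.57% held the GAS form and 3.02% the repeat. Matches are in capitals, the sequences run 5′ to 3′ on the gene's own strand, and in both genes this is the minus strand. The SOCS1 window is chr16:11256205-11256454 and the CISH window chr3:50611775-50612024.
SOCS1: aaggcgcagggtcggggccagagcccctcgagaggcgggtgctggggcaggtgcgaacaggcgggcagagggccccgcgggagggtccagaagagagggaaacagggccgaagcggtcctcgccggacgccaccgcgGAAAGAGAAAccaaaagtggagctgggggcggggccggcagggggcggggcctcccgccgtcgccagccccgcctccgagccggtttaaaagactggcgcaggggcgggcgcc
CISH: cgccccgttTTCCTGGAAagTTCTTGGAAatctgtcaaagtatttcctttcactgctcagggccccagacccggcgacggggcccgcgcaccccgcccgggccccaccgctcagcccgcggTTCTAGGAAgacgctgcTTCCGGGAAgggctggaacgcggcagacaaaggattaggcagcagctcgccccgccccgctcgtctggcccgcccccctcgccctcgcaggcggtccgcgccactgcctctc
The SOCS1 match starts at position -113 from the start site. CISH held 4 GAS matches, starting at -241, -230, -129 and -112. These are matches of letters in a window. They show neither that a factor binds there nor, for members without one, that it does not.

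Total counts per library ranged from 6559933 to 9291154. Levels are given as CPM, read counts scaled to a common library total after TMM scaling, and the change within a line as a log2 ratio of CPM with 2 counts added as a prior. Errors of log2 changes are standard errors (SE) of estimates over the 4 lines, from edgeR's quasi-likelihood test with cell line as a term. Each is the estimate's size divided by the square root of the test's F statistic. Variance is shared across genes in that test, so the SE is not the spread of the 4 line ratios. A gene is called at a Benjamini-Hochberg adjusted p of 0.05 over all 13457 genes tested. Intervals on CPM and on ratios within a line cover counting error only. Of the defining markers, 6 melanocytic genes summed to 898 and 591 CPM in untreated and treated A375 and to at most 56.7 CPM in the other libraries. The 6 kidney tubule genes summed to 361 and 392 CPM in A498 and to at most 125 elsewhere. The 6 lung epithelial genes were nearly absent in both lung lines, at 0.627 to 1.66 CPM in sum, and SFTA3 was at 0 in every library. The 4 epithelial genes summed to 4918 CPM in untreated 549, 1005 in untreated A498, 41.4 in untreated A375 and 24.3 in untreated H1703. Of the 3 squamous genes, SOX2 had 1776 counts in untreated H1703, whereas TP63 had 1 and KRT5 0. Of 5 genes of immune cells that make IFN-gamma, CD3E, CD3D and IFNG had 0 counts in all 8 libraries. PTPRC had 33 and 7 counts in untreated and treated A375 and 4 in untreated A498, NKG7 had 1 in untreated A375, and the list summed to at most 3.67 CPM.

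Across the members, IFN-gamma was followed by a rise of SOCS1 and of JAK2, whereas neither receptor chain nor the other kinases were called. Of the 10 members, 2 were called higher and 0 lower with IFN-gamma, where 1.92% of all genes were called, 1.59% higher and 0.327% lower. SOCS1 passed the filter mainly through the treated arm, with at least 10 counts in 3 treated libraries and 1 untreated one, so its call is read with its counts. In these bulk libraries a change in RNA per cell and a change in the share of cells that make the RNA cannot be told apart.

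**Figure D1:**
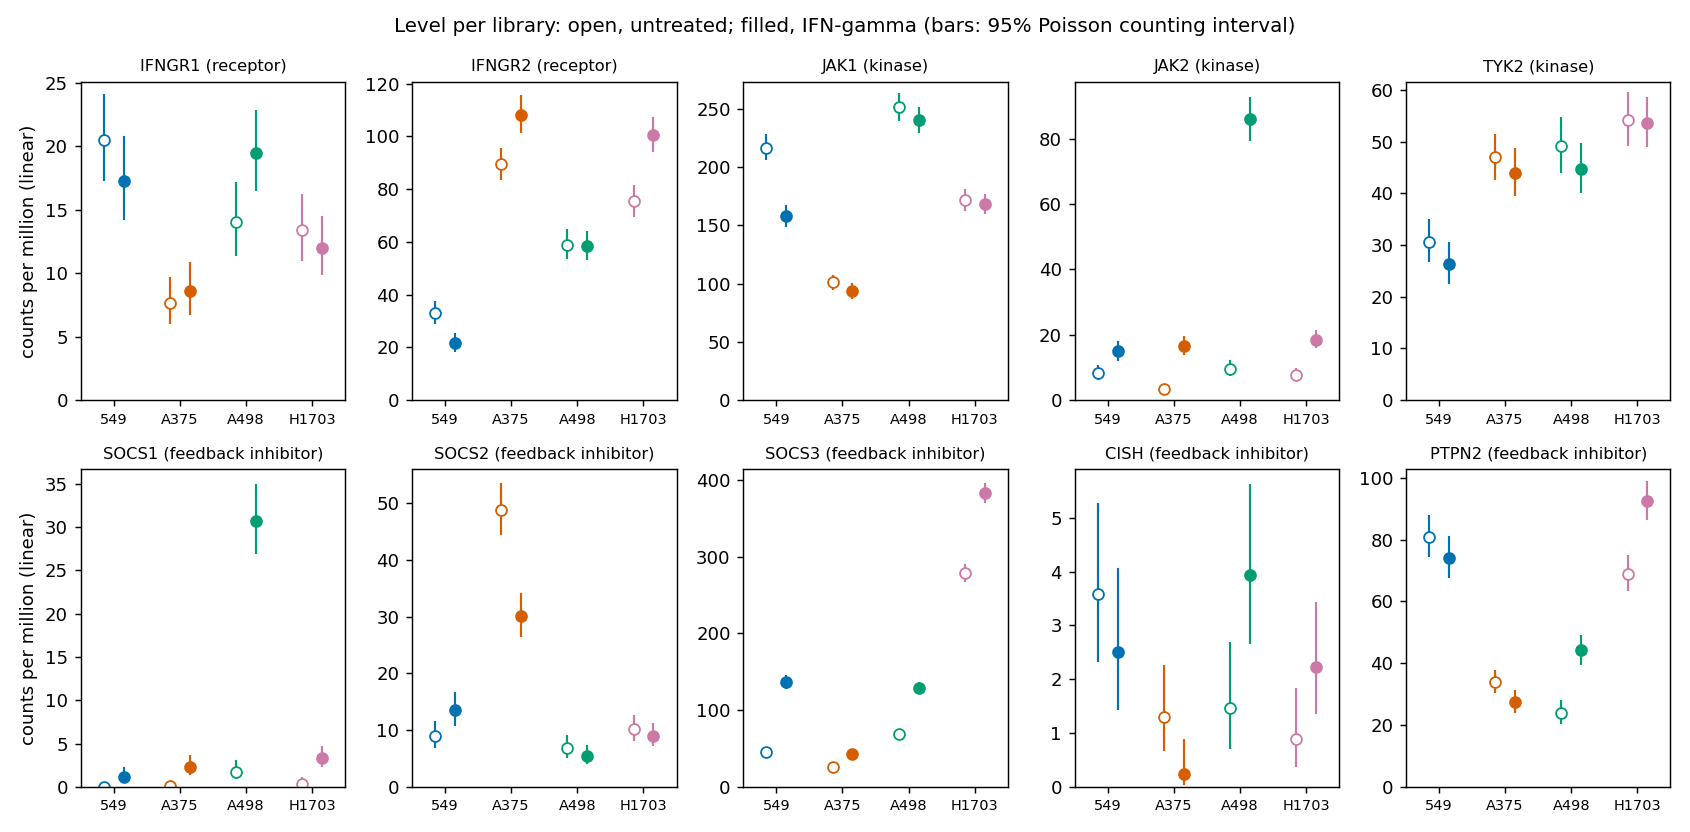
CPM (linear axes) of each member in each of the 8 libraries, with open circles for untreated and filled circles for IFN-gamma libraries and bars for 95% Poisson counting intervals. JAK2 reached 85.9 CPM and SOCS1 30.7 CPM in treated A498, while the intervals of JAK1 and TYK2 in H1703 overlap between arms.

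The ligand-binding chain IFNGR1 was low in A375 and high in 549 before treatment. Untreated counts were 143 for 549, 71 for A375, 96 for A498 and 105 for H1703, or 20.5, 7.67, 14.1 and 13.4 CPM. The counting intervals of A498 and H1703 overlapped, and those of the other neighbours in this order did not. With IFN-gamma the counts were 110, 70, 148 and 108 in the same lines, so A498 became the highest line at 19.4 CPM. The ratio was above 1 beyond counting error in A498 alone, at 1.38 (95% interval 1.06 to 1.81). Over the lines IFNGR1 had a log2 change of 0.05 ± 0.22 (SE, 4 lines, edgeR adjusted p = 0.91), with a 95% interval from -0.46 to 0.56.

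IFNGR2, the second receptor chain, had the reverse order of lines. Untreated counts were 231 for 549, 828 for A375, 403 for A498 and 589 for H1703, or 33.1, 89.4, 59.0 and 75.3 CPM, and no neighbouring intervals overlapped. Treated counts were 138, 881, 444 and 907, and the order of the lines stayed the same. The lines moved apart, from a 2.70-fold range to a 5.002-fold range. The ratio was 0.654 in 549 (interval 0.526 to 0.811), 1.21 in A375 (1.10 to 1.33), 0.989 in A498 (0.862 to 1.13) and 1.34 in H1703 (1.203 to 1.48). With 1 line lower and 2 higher, the log2 change over the lines was 0.03 ± 0.21 (SE, edgeR adjusted p = 0.95), with an interval from -0.44 to 0.50. Both receptor estimates were close enough to 0 that their sign turned with upper quartile scaling and with library size alone.

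JAK1, the kinase carried by IFNGR1, was lower in A375 than in the other lines in both arms. Untreated counts were 1514 for 549, 935 for A375, 1719 for A498 and 1342 for H1703, and treated counts were 1007, 760, 1828 and 1518. Untreated levels were 217, 101, 252 and 172 CPM, with no overlap of neighbouring intervals. The log2 ratios were all below 0, from -0.46 in 549 to -0.03 in H1703, as they were for 15.2% of genes tested. In 549 the ratio of 0.728 lay below 1 beyond counting error (interval 0.672 to 0.789). The log2 change over the lines was -0.17 ± 0.16 (SE, edgeR adjusted p = 0.58), with an interval from -0.54 to 0.21.

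TYK2 varied least of the members, both between lines and with treatment. Untreated counts were 214 for 549, 435 for A375, 336 for A498 and 424 for H1703, and treated counts were 168, 358, 340 and 484. Its untreated levels ranged 1.77-fold, from 30.6 CPM in 549 to 54.2 CPM in H1703, and the intervals of H1703, A498 and A375 overlapped in turn. Its ratios were between 0.859 and 0.990, and no line's interval excluded 1. The log2 change was -0.12 ± 0.16 (SE, edgeR adjusted p = 0.70), with an interval from -0.48 to 0.25.

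JAK2, the kinase carried by IFNGR2, rose over the lines and was higher with IFN-gamma in each of them. Untreated counts were 58 for 549, 32 for A375, 66 for A498 and 59 for H1703, or 8.30, 3.46, 9.66 and 7.55 CPM, and the intervals of A498, 549 and H1703 overlapped in turn. Treated counts were 95, 135, 654 and 167, or 14.9, 16.6, 85.9 and 18.5 CPM. All treated libraries lay above all untreated ones, which held for 1 of the 10 members and, in that direction, for 1.77% of genes tested (1.08% had all treated libraries below). A375, the lowest line before treatment, was no longer apart, since the treated intervals of 549, A375 and H1703 overlapped, and A498 stood far above them. The ratio was 1.79 in 549 (95% interval 1.28 to 2.53), 4.80 in A375 (3.24 to 7.29), 8.89 in A498 (6.90 to 11.6) and 2.45 in H1703 (1.81 to 3.36). Over the lines the log2 change was 1.89 ± 0.38 (SE, edgeR adjusted p = 0.045), with an interval from 1.04 to 2.75. The call was lost without A375 (adjusted p = 0.10), without A498 (0.16), without H1703 (0.057) and with the authors' log2 values and limma (0.053), and its estimate stayed positive in each.

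Set against JAK1 and TYK2 in the same library, a comparison that no scaling enters, the change of JAK2 had the same order of lines. The ratio of JAK2 to JAK1 counts rose 2.46-fold for 549, 5.19-fold for A375, 9.32-fold for A498 and 2.50-fold for H1703. Relative to TYK2 the folds were 2.09, 5.13, 9.79 and 2.48. JAK2 and its family members thus had unequal changes in each line.

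**Figure D2:**
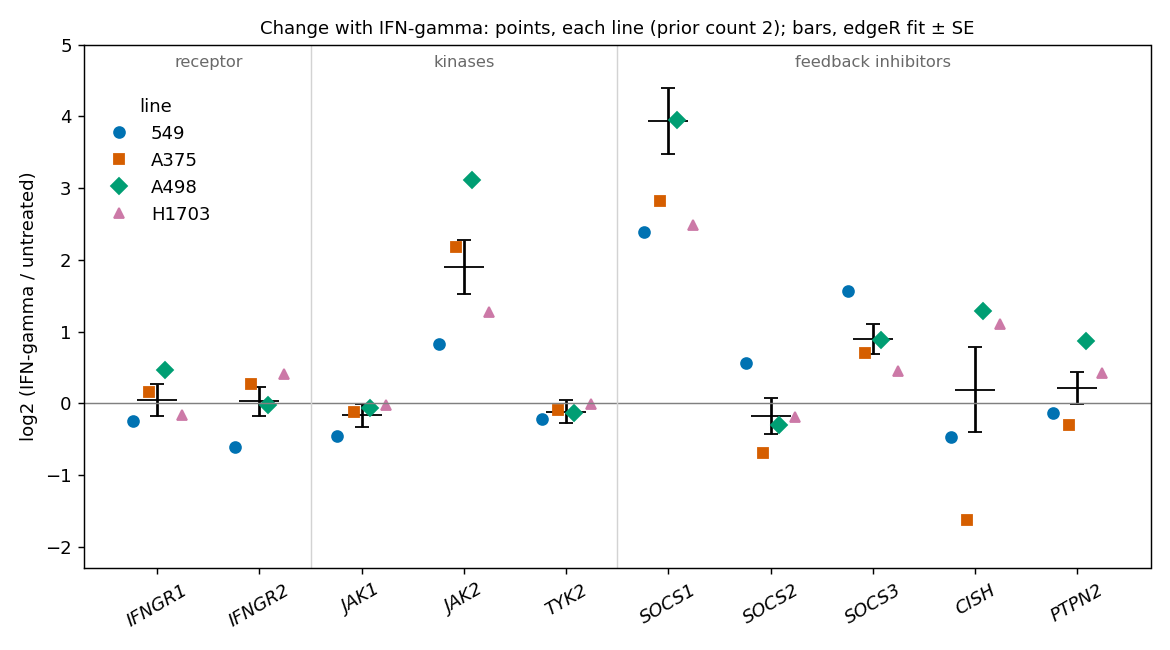
Log2 ratio of IFN-gamma over untreated for each member (vertical axis), with 1 point per line (prior count 2) and black bars for the edgeR estimate ± SE over 4 lines. JAK2 and SOCS1 lie above 0 in every line with the highest point in A498, and the other receptor and kinase points lie between -0.61 and 0.46. The SOCS1 points of 549 and A375 depend on the prior count.

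SOCS1, the inhibitor most closely tied to IFN-gamma signalling, was at or near the limit of detection before treatment and rose over the lines, with a higher count in each treated library than in its untreated one. Untreated counts were 0 for 549, 1 for A375, 12 for A498 and 3 for H1703, and treated counts were 7, 19, 234 and 30. All neighbouring untreated intervals overlapped. Treated levels were 1.10, 2.33, 30.7 and 3.33 CPM. The arms overlapped across lines, since untreated A498 at 1.76 CPM lay above treated 549. Within a line the ratio was 17.5 in A498 (95% interval 9.83 to 34.4), 8.67 in H1703 (2.70 to 44.4) and 21.6 in A375 (3.43 to 898). In 549, set against a floor of 3 counts in the untreated library, it was at least 2.55-fold higher. That bound leaves out the counting error of the 7 treated counts, and the exact 95% interval of the ratio started at 1.58. The log2 change over the lines was 3.94 ± 0.46 (SE, edgeR adjusted p = 0.0030), a fitted value that depends on the prior count where a line had 0 counts.

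With a prior count of 2 the order of lines by log2 ratio was the same for SOCS1 and JAK2, with A498 first, then A375, H1703 and 549. IFNGR1, which was not called, had this order too. For both JAK2 and IFNGR1 the ratio intervals of neighbouring lines in this order overlapped, so their orders are not firm. The share of all genes with this order was not determined, so whether it is particular to the called members is not known. For SOCS1 this order rests on the prior count. With a prior count of 0.5, 549 came first at 4.17, ahead of A498 at 4.08, A375 at 3.80 and H1703 at 2.92. The plain ratio of A375, from 1 untreated count, was also above that of A498. The SOCS1 call was kept without 549, A375 or H1703, with adjusted p-values of 0.012, 0.0057 and 0.012. Without A498 the filter on low counts removed SOCS1, so no value was obtained.

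SOCS3, best known as the inhibitor of gp130 receptors, had the widest untreated range of the 9 members with a count in every library. Untreated counts were 322 for 549, 244 for A375, 475 for A498 and 2178 for H1703, or 46.1, 26.3, 69.5 and 279 CPM, a 10.6-fold range in which no neighbouring intervals overlapped. Treated counts were 871, 351, 981 and 3449. Each line had a ratio above 1 beyond counting error, at 2.96 in 549 (interval 2.60 to 3.38), 1.64 in A375 (1.39 to 1.93), 1.85 in A498 (1.66 to 2.07) and 1.37 in H1703 (1.301 to 1.45). H1703, with the highest untreated level, had the smallest ratio, but A375, with the lowest level, did not have the largest. Level and ratio share the untreated library and are not independent. Relative to JAK1 in the same library, SOCS3 went up 4.07-fold for 549, 1.77-fold for A375, 1.94-fold for A498 and 1.4-fold for H1703. The log2 change over the lines was 0.90 ± 0.21 (SE) and was not called (edgeR adjusted p = 0.074), with an interval from 0.42 to 1.38. It was called by DESeq2 (adjusted p = 0.0066), by the likelihood ratio test (0.0051) and without a filter (0.021).

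SOCS2, an inhibitor of growth hormone signalling, was highest in A375 in both arms. Untreated counts were 63 for 549, 452 for A375, 47 for A498 and 80 for H1703, or 9.02, 48.8, 6.88 and 10.2 CPM, and the intervals of H1703, 549 and A498 overlapped in turn. Treated counts were 86, 245, 42 and 81. A375 had a ratio of 0.616 (interval 0.525 to 0.722), 549 had 1.49 (1.07 to 2.10), and the intervals of A498 and H1703 held 1. Over the lines the log2 change was -0.18 ± 0.25 (SE, edgeR adjusted p = 0.72), with an interval from -0.75 to 0.40. SOCS2 overlaps SOCS2-AS1 on the opposite strand in the GENCODE annotation, and use of strand in the counting is not stated. SOCS2-AS1 had 21 counts in untreated A375 and 1 in treated A375, and at most 7 in the other libraries.

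CISH, the STAT5-induced member with 4 GAS matches in the window above, was too low for a firm value. Untreated counts were 25 for 549, 12 for A375, 10 for A498 and 7 for H1703, and treated counts were 16, 2, 30 and 20. The ratio was 2.69 in A498 (interval 1.28 to 6.17), 2.48 in H1703 (1.01 to 6.94), 0.701 in 549 (0.350 to 1.36) and 0.190 in A375 (0.0206 to 0.851). The lines thus lay on both sides of 1, and the log2 change of 0.19 ± 0.59 (SE, edgeR adjusted p = 0.87) had an interval from -1.14 to 1.53. MAPKAPK3, which overlaps CISH on the opposite strand, had 121 to 274 counts per library. Likewise TMEM50B lies opposite IFNGR2, with 85 to 334 counts, and RAVER2 opposite JAK1, with 136 to 276. The part of such overlap in the members' counts was not tested.

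PTPN2, the phosphatase, likewise differed in direction between lines. Untreated counts were 566 for 549, 314 for A375, 164 for A498 and 539 for H1703, or 81.0, 33.9, 24.01 and 69.0 CPM, and of the neighbouring intervals those of 549 and H1703 overlapped. Treated counts were 473, 224, 336 and 833. The ratio was 1.84 in A498 (interval 1.52 to 2.23), 1.34 in H1703 (1.201 to 1.496), 0.915 in 549 (0.808 to 1.03) and 0.811 in A375 (0.680 to 0.966). Over the lines the log2 change was 0.21 ± 0.22 (SE, edgeR adjusted p = 0.61), with an interval from -0.30 to 0.72. By log2 ratio CISH and PTPN2 had the same order of lines, from A498 through H1703 and 549 to A375. For CISH the ratio intervals of neighbouring lines in this order overlapped, so its order is not firm. For PTPN2 those of 549 and A375 overlapped, so its last places are not firm either.

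Set side by side, the receptor and kinases on one hand and the feedback inhibitors on the other had 1 called member of 5 each. The median log2 change was 0.03 for the receptor and kinases and 0.21 for the inhibitors, against -0.02 for all genes tested. The difference of 0.18 between the medians rests on few genes and lines, and was 0.73 without A375, 0.32 without 549 and 0.25 without H1703, with no value without A498. By line, the median log2 ratio of the receptor and kinases was -0.24 for 549, 0.16 for A375, -0.02 for A498 and -0.01 for H1703. That of the inhibitors was 0.57 for 549, -0.30 for A375, 0.89 for A498 and 0.46 for H1703. A375 was thus the line in which the inhibitors' median lay below that of the receptor and kinases. All 5 receptor and kinase genes had their lowest log2 ratio in 549, but the share of all genes with their lowest ratio there was not determined. For IFNGR1 and TYK2 this place is within counting error. The ratio intervals of 549 (0.651 to 1.09 and 0.698 to 1.06) overlapped those of H1703 (0.676 to 1.18 and 0.867 to 1.13). For JAK2 this place is within counting error too, with overlapping intervals of 1.28 to 2.53 in 549 and 1.81 to 3.36 in H1703. Changes of at least 2-fold upward were seen for 2 members of 549, 2 of A375, 3 of A498 and 3 of H1703, where 6.89%, 10.5%, 10.4% and 3.3% of genes tested moved that far. Changes of at least 2-fold downward were seen in 0, 1, 0 and 0 members in the same order, against 9.07%, 10.1%, 6.85% and 1.53% of genes, and the 1 was CISH in A375. The lines' log2 ratios were spread by at least 2 in 2 members, JAK2 and CISH, as in 11.9% of genes tested.

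**Figure D3:**
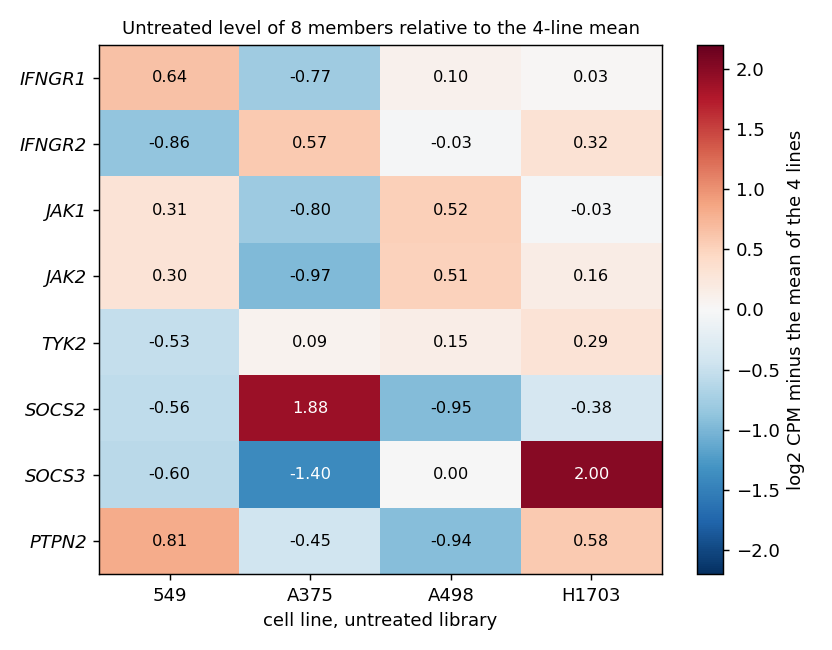
Untreated log2 CPM of 8 members minus the mean of the 4 lines, with red for above and blue for below the mean (SOCS1 and CISH are left out for low counts). SOCS2 in A375 (1.88) and SOCS3 in H1703 (2.0) stand highest, and A375 is lowest for IFNGR1, JAK1, JAK2 and SOCS3.

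Most members differed in level between lines, as did most genes. In the fit with treatment as a term, so that each line is represented by its 2 libraries, 9 of 10 members differed between lines and CISH did not (edgeR adjusted p = 0.22). Of all genes tested, 56.3% did. These levels take in the treated libraries, and treated A498 had 234 counts of SOCS1 and 654 of JAK2. Among untreated libraries all neighbouring intervals of SOCS1 overlapped, and for JAK2 A375 alone lay apart. Among the 60 comparisons of a member between 2 lines, 26 were called, where the share of all genes called for a pair of lines was 26.6% for 549 and A498, 28.3% for 549 and H1703, 29.5% for 549 and A375, 31.4% for A375 and A498, 33.9% for A375 and H1703, and 37.3% for A498 and H1703. SOCS3 was called in 5 of 6 pairs, PTPN2 in 4 and CISH in 0. The widest SOCS3 difference was between A375 and H1703, where the log2 difference was 3.28 ± 0.32 with H1703 higher (SE; adjusted p = 0.00013 in edgeR). SOCS2 was lower in A498 than in A375 by a log2 difference of -2.67 ± 0.37 (adjusted p = 0.00093). IFNGR2 was higher in A375 than in 549 by 1.85 ± 0.30 (adjusted p = 0.0022), and IFNGR1 was lower, at -1.21 ± 0.32 (adjusted p = 0.021). JAK1 was higher in A498 than in A375 by 1.33 ± 0.24 (adjusted p = 0.0032). Untreated levels were at least 4-fold apart in 3 members (SOCS1, SOCS2 and SOCS3), a share close to the 30.3% among all genes. For SOCS1 this rests on the prior count, since its untreated counts were 0 in 549 and at most 12 elsewhere.

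Whether the response itself differed was tested for each line against the other 3. Of 40 such tests of members 0 were called by edgeR, 1 had an unadjusted p under 0.05, and DESeq2 and limma-voom also called 0. Over all genes edgeR called 0% in each of these 4 comparisons. At the unadjusted limit of 0.05 it picked out 485, 1153, 585 and 418 of 13457 genes for 549, A375, A498 and H1703. The 1 among the members' tests is therefore not read as a result about them. The 1 was JAK2 in A498, whose log2 change exceeded that of the other lines by 1.71 ± 0.62 (SE, unadjusted p = 0.023, edgeR adjusted p = 1). For SOCS3 in 549 the difference was 0.87 ± 0.40, and for CISH in A375 it was -3.00 ± 1.35. These tests had 2 residual degrees of freedom before sharing across genes, and each rests on 1 pair of libraries on one side. They do not show that the lines responded alike.

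The rest of the pathway was read from lists of related genes. Among the STAT genes, STAT2, which acts in type I interferon signalling, had a log2 change of 2.59 ± 0.34 and was called (SE over 4 lines, adjusted p = 0.0059 in edgeR). STAT3 had a change of 0.37 ± 0.17, STAT6 of 0.30 ± 0.21 and STAT4 of -0.76 ± 0.48. Of 9 tested direct response genes 9 were called higher, with log2 changes from 2.39 to 5.96. The 6 with the smallest p were the guanylate-binding protein GBP1 (5.96 ± 0.37), the transactivator NLRC5 (4.85 ± 0.28), the transcription factor IRF1 (4.57 ± 0.29), the peptide transporter TAP1 (3.99 ± 0.24), the immunoproteasome subunit PSMB9 (3.69 ± 0.33) and B2M, the light chain of MHC class I (2.90 ± 0.28). Each of the 9 had a log2 ratio above 1.5 in every line. The filter removed the remaining gene of the list, CIITA, the transactivator of MHC class II, which is named after its values were seen. It went from 6 to 491 counts in A375, from 11 to 152 in A498 and from 0 to 8 in 549, but from 1 to 2 in H1703. These genes are known targets of IFN-gamma, and the list was chosen for that.

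The other negative regulators are given beside the 1.92% of all genes called, a share at which lists of this size hold few calls or none. Of 4 other SOCS genes 0 were called, with SOCS6 at 0.55 ± 0.21 (SE, edgeR adjusted p = 0.18), SOCS5 at 0.36 ± 0.23 and SOCS4 at 0.18 ± 0.20. Of 7 genes of the ligases that SOCS boxes recruit 0 were called, with the E2 enzyme UBE2F at 0.51 ± 0.22, the scaffold CUL2 at 0.46 ± 0.18 and TCEB2, which encodes elongin B, at -0.37 ± 0.15. Of 14 other inhibitors and associated factors 1 was called, the STAT-interacting protein NMI, which rose by 2.40 ± 0.27 (adjusted p = 0.0024). USP18, the inhibitor of the type I interferon receptor, had a change of 2.16 ± 0.67 (adjusted p = 0.13). Its counts went from 48 to 1734 in A498 and from 50 to 51 in 549. IRF2, an antagonist of IRF1, had 0.87 ± 0.20 (adjusted p = 0.075) and the STAT ligase PIAS2 -0.41 ± 0.22.

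Of 15 other receptor chains that use these kinases 0 were called, which at the same share of 1.92% says nothing particular about them. IL4R, a chain of the IL-4 receptor, had a log2 change of 0.93 ± 0.22 (SE, edgeR adjusted p = 0.075). IL20RB had 2.01 ± 0.57 (adjusted p = 0.11), with counts from 105 to 616 in A498 and 24 to 22 in H1703. IL6R had -1.10 ± 0.33 (adjusted p = 0.12). Of 6 genes in a list of JAK3, adaptors and JMJD6, 0 were called, with SH2B1 at -0.42 ± 0.19, JMJD6 at -0.38 ± 0.23 and STAM2 at 0.27 ± 0.18. The median log2 change of the receptor list was 0.27, that of the other inhibitors 0.15 and that of the JAK3 and adaptor list -0.18.

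**Figure D4:**
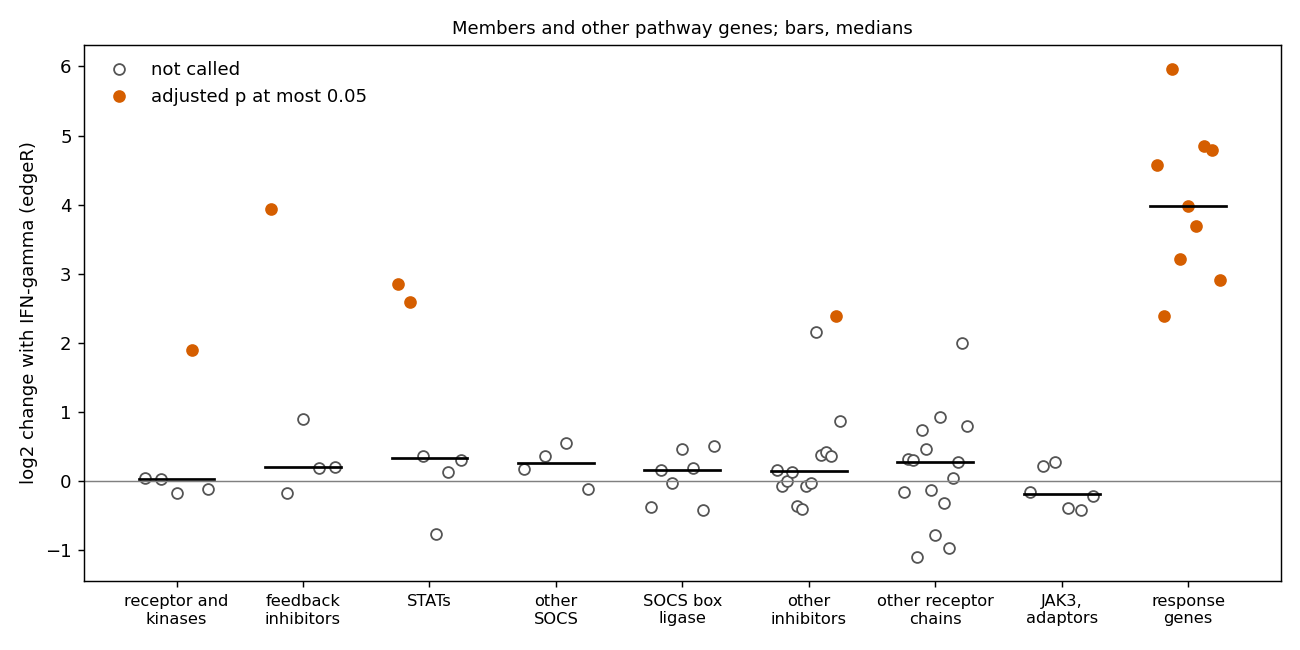
Log2 change with IFN-gamma (edgeR, vertical axis) of each tested member and of each tested gene in 7 pathway lists, with filled points for genes at an adjusted p of at most 0.05 and bars for medians. Outside the direct response genes, where all 9 are called, each called gene lies above the median of its list.

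Genes with a pattern like that of a called member over the 8 libraries were ranked by the correlation of log2 CPM, keeping genes whose mean reached 3. The 5 nearest to JAK2 were TRAF2, ALPK1, DDX58, USP42 and NPIPB11, with Pearson's r from 0.96 to 0.98. Among those nearest to SOCS1 were MORC3, DDX58, GGPS1 and ZNF267, with r from 0.97 to 0.99. SOCS1 itself, at 0 to 12 untreated counts, was below that mean, so its pattern depends on the prior count. DDX58, the RNA sensor RIG-I, was on both lists. Its counts were 87, 64, 358 and 122 in untreated 549, A375, A498 and H1703 and 340, 557, 9635 and 969 in treated libraries, so it too was highest in treated A498. These 8 libraries share lines and treatment and are not independent points, and the r values only rank likeness.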

How the data were processed

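RNA was sequenced from 4 lines, untreated or with IFN-gamma, and groups were taken from the sample labels. In a single table the authors deposited raw gene counts beside log2 normalized values, per the file headers. How the log2 values were scaled is not stated. The submitters' processing notes name Bowtie2, edgeR and hg19. Per the labels' protocols a SMARTer stranded kit and the QuantSeq kit for 3' ends are both possible, so levels are not compared between genes. Annotation, counting tool and use of strand: not given in the sources used here.

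Rows were summed by symbol (286 symbols had several). Genes passed edgeR's filterByExpr (minimum count 10, total 15), which left 13457. Counts were TMM-scaled and tested with glmQLFit and glmQLFTest in edgeR 4.0.16 under R 4.3.3. Cell line was a term because both arms hold each line, which left 3 residual degrees of freedom. Sharing variance across genes raised this to 8.70 for the members, the value used in their intervals of log2 change. Deviations from arm means correlated at 0.85 to 0.90 within lines, and at -0.095 or lower otherwise. Centring on arm means pushes correlations between lines below 0, so the negative values are no evidence for the pairing. The 4 lines stand as replicates, and the labels name no replicate cultures. Intervals are exact Poisson (levels) or binomial (ratios), at 95%. Promoter windows are in GRCh38.p14, not the files' build, and no deposited value was placed on them. The methods were tested on simulated data. Alternatives used DESeq2 1.42.0, limma 3.58.1, other scalings and filters, and each line left out. Members, lists and the rule for named genes (in each list, up to 6 called genes and up to 3 others, by smallest p, and the 5 genes most like each called member) were chosen with earlier results of these data known. Some genes that this rule names are not reported here.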

Additional observations from a re-analysis of the deposited data

Results flagged for a closer look

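The values of the 10 members were screened for 1 line standing apart in 30 groups of 4 (untreated level, treated level and log2 ratio of each member). Chance picks out about 1 in 20 such groups, and 1 was picked out here. JAK2 in treated A498 had a log2 CPM of 6.43, against 3.92 to 4.23 in the other treated lines. Untreated A498, at 66 counts, did not stand apart in the same way.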

How the results depend on the processing

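The 258 genes called with IFN-gamma became 884 without a filter, 1036 with DESeq2 and 1319 with the likelihood ratio test, and ranged from 106 (without A498) to 455 (without H1703) with 1 line left out, and 153 without 549. With no replicate block, that is without the pairing by cell line, the edgeR test gave 0 called genes and 0 called members, and 543 genes had an unadjusted p below 0.05. The 2 called members became 1 with the authors' log2 values, and 0 to 2 with 1 line left out, 0 without A498 and 1 without A375 or H1703. JAK2 kept a positive estimate in all 15 alternatives, from 1.44 to 2.26, and was called in 10. SOCS1 was between 3.35 and 4.23 in 14 and was called in 13. Without the block their adjusted p was 1.

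Estimates near 0 changed sign, none of them called. IFNGR1 was -0.0153 with upper quartile scaling and -0.0222 with library size alone, and IFNGR2 -0.0389 and -0.0474. With 1 line left out, IFNGR1 ranged from -0.0957 (without A498) to 0.1673, and IFNGR2 from -0.1155 (without H1703) to 0.2375, with -0.0562 without A375. SOCS2 ranged from -0.4063 to 0.0314 (without A375), PTPN2 from -0.0057 (without A498) to 0.3799, and CISH from -0.2965 (without A498) to 0.6740, with -0.2005 without H1703. The causes were not tested.

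For the response of 1 line against the others, edgeR's count of 0 genes became 10, 61, 19 and 14 with DESeq2 for 549, A375, A498 and H1703. For A375 it was 2 with upper quartile scaling or library size alone and 91 without a filter, and for A498 it was 31 without a filter. No member was called in any of these. Depth limits SOCS1 and CISH most, at 0 to 12 and 7 to 25 untreated counts.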

Other observations

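Some pathway genes that the filter on low counts removed are given here as values chosen after they were seen. IL12RB1, a chain of the IL-12 receptor that pairs with TYK2, went from 0 to 3 counts in 549, from 3 to 17 in A375, from 1 to 13 in A498 and from 2 to 6 in H1703. STAT5A had 150 and 141 counts in untreated and treated A375 and 0 and 16 in A498, with 3 in each 549 library and 0 in both H1703 libraries. PRLR, the prolactin receptor, had 3 and 15 counts in H1703 and at most 5 elsewhere. None of these was tested.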
